A study of Sus scrofa with 8 samples.

Results

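miR-375-3p is 1 of the 13 mature miRNAs for which the study listed q-PCR primer sequences. They are the union of the 10 most abundant miRNAs of each stage of lactation in porcine milk exosomes. The forward primers serve here as the listed miRNA sequences, and 3′ ends are described relative to them. The list was chosen on these libraries, so that presence in it is not independent evidence of abundance. miR-375-3p was recognised here by sequence. After the 3′ adaptor had been cut off, a read counted as miR-375-3p when the remaining insert was 18 to 26 nt long and its first 18 nt were those of the listed sequence. By this rule 81580 of 175797441 sequenced reads were miR-375-3p. Small RNA was sequenced from exosomes, small membrane vesicles that were precipitated from defatted and filtered milk of 3 healthy adult Yorkshire sows, none a first-time mother. There are 8 libraries. The libraries of 0 days after birth (0d-1, 0d-2 and 0d-3) came from single sows, and those of 3, 7, 14, 21 and 28 days (3d to 28d) came from 1 pool of RNA each. The division of the study was used, in which 0 and 3 days are colostrum (4 libraries) and 7 to 28 days are mature milk (4 libraries). The labels name no treatment and give the same exosome preparation and sequencing instrument for each library, although the deposited reads differ in length and in their 5′ bases as described below. The 4 libraries of a milk class are replicates of the class only in the sense that they are separate samples of it, and 3 of the 4 colostrum libraries are of the same day. The same 3 sows gave the milk of every stage, so that the libraries share animals, whereas the permutation tests treat them as independent samples, and a pool gives no spread between sows. In such preparations fewer vesicles and fewer miRNA molecules per vesicle cannot be told apart.

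A miRNA is a short RNA that guides an Argonaute protein to complementary sites in messenger RNAs, mainly through its seed, bases 2 to 8 from the 5′ end. miR-375 is best known from the islet cells of the pancreas, where it restrains insulin secretion and is needed for a normal mass of islet cells, and it is abundant in many glandular and secretory epithelia.

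The listed sequence of miR-375-3p, with the seed in capitals and with T for U as in the deposited reads, is shown because every count below rests on it.
miR-375-3p: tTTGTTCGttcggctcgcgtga
It is 22 nt long, and its first 18 nt end 4 nt before the 3′ end, so that variants of the last bases stay in the count. 0 of the other 12 listed miRNAs share the seed. The most frequent insert of miR-375-3p was this sequence in every library. For each of the other 12 miRNAs the most frequent single insert was its own listed sequence, a result not given library by library. In some libraries the inserts of some of these 12 that were shorter, or that had bases added, outnumbered those of the listed sequence. Such a class can hold several different inserts. The other 5 of the 6 inserts with the highest mean share over the libraries are printed next, since the results on 3′ ends turn on them, with bases that differ from the listed sequence or follow it in capitals. Positions are counted from 1 at the 5′ end.
T20G: tttgttcgttcggctcgcgGga
added A: tttgttcgttcggctcgcgtgaA
shorter by 2: tttgttcgttcggctcgcgt
shorter by 1: tttgttcgttcggctcgcgtg
added T: tttgttcgttcggctcgcgtgaT
In all, 118 distinct inserts were assigned to miR-375-3p, of which 8 were seen in all 8 libraries and 67 were seen in 0d-3 alone.

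The depth of the libraries bears on every value. They held from 14590531 reads (14d) to 28141425 reads (28d), 40 nt long in 6 libraries and 36 nt long in 7d and 21d, both mature milk. Inserts of 18 to 26 nt numbered 3300160 in 0d-1, 4453033 in 0d-2, 13913018 in 0d-3, 1658357 in 3d, 836780 in 7d, 2430630 in 14d, 1313165 in 21d and 3661778 in 28d. The library 0d-3 stood apart from the others. In the other 7 libraries between 41.8% and 73.1% of these inserts carried at their 5′ end a leader, as the 4 most frequent inserts of exactly 5 nt are called here, against 0.105% in 0d-3. miR-148a-3p, the most abundant miRNA of milk, made up between 62.0% and 74.4% of the counts of the 13 listed miRNAs in the other 7 libraries, and 0.102% in 0d-3. The library labelled 0d-3 thus lacked the leading milk miRNA almost entirely. The cause was not tested, nor was whether the library is the sample that its label names. The values of 0d-3, and the colostrum means that hold it, are to be read with this in view. The comparisons of the milk classes are therefore given with and without it. The libraries 0d-1 and 0d-2 were checked for being 1 library deposited more than once. Their counts of the 13 miRNAs were not equal within counting error (chi-square per degree of freedom of 43.4, which takes in no other source of spread), whereas over the 3′ end classes of miR-375-3p the value was 2.22, and they were kept as the separate samples that the labels name.

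miR-375-3p was detected at every stage of lactation. Its count was 1978 in 0d-1, 2923 in 0d-2, 69550 in 0d-3 and 793 in 3d. In mature milk the count was 687 in 7d, 1936 in 14d, 1503 in 21d and 2210 in 28d. Of all miR-375-3p counts, 85.3% came from 0d-3, and 12030 counts remained without it. Among the 13 listed miRNAs, miR-375-3p took a share of the counts of 0.725% in 0d-1, 0.710% in 0d-2, 2.26% in 0d-3 and 0.749% in 3d. In mature milk the share was 0.672% in 7d, 1.09% in 14d, 0.698% in 21d and 0.672% in 28d. It ranked last of the 13 in 6 libraries, 12 of 13 in 14d and 10 of 13 in 0d-3. In the order of the shares, 0d-3 was highest with a 95% Wilson interval of 2.24 to 2.28%, followed by 14d with 1.04 to 1.14%. Each of the other 6 libraries had an interval that overlapped that of its neighbour in the order, from 0.749% in 3d down to 0.672% in 7d. The intervals cover counting error alone, because no molecular identifiers were used and copies of 1 molecule count repeatedly. The highest share was 3.37 times the lowest over 8 libraries and 1.62 times without 0d-3.

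**Figure D1:**
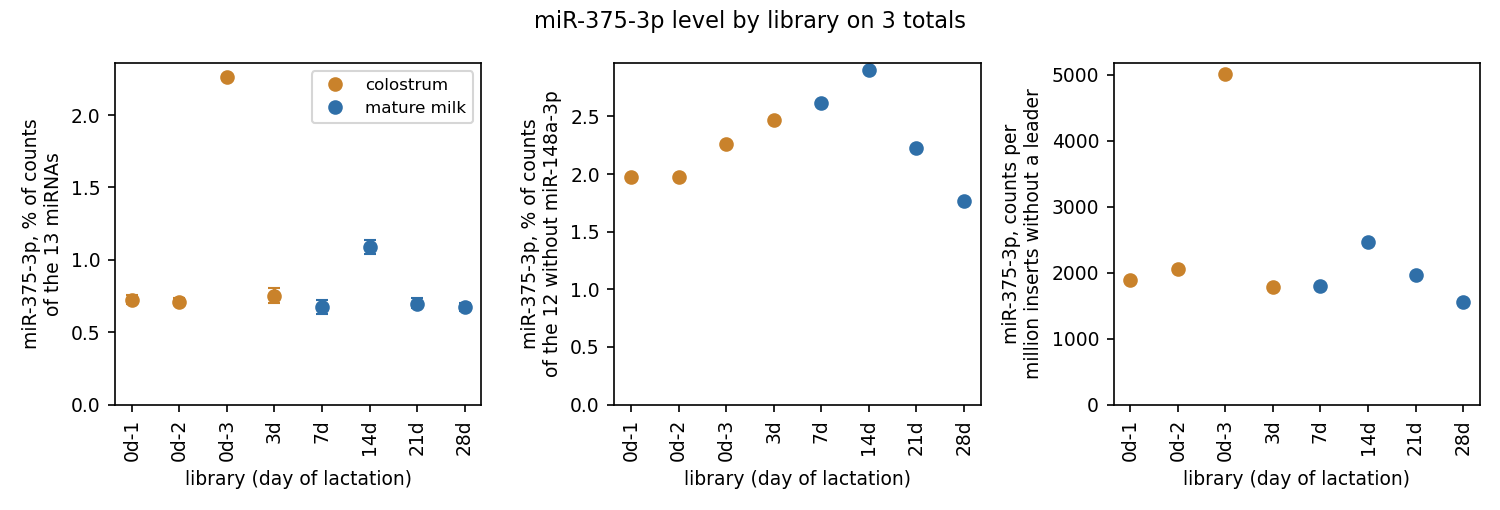
Level of miR-375-3p in each of the 8 libraries, as % of the counts of the 13 listed miRNAs with 95% Wilson intervals (left), as % of the 12 other than miR-148a-3p (centre) and per 1000000 inserts of 18 to 26 nt without a leader (right). The library 0d-3 is highest on the left (2.26%) and on the right (5004 per 1000000), whereas 14d is highest in the centre (2.91%).

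The comparison of colostrum with mature milk asks whether the miRNA differs between these milks. The share of the 13 in colostrum was 1.11% ± 0.766 and that in mature milk was 0.783% ± 0.205 (SD, n = 4 each), and the groups overlapped. The difference did not pass an exact permutation test of all 70 ways to divide the libraries evenly (two-sided, p = 0.457, adjusted p = 0.610 over 4 tests, with 0.0286 as the smallest p that the design allows). Without 0d-3 the colostrum libraries had 0.728% ± 0.0193 (SD, n = 3), so that the mean of colostrum then lay below that of mature milk and the 3 values fell within the range of mature milk. Among libraries of 40-nt reads alone the mean of mature milk was 0.881% ± 0.295 (SD, n = 2) and the permutation test gave p = 0.933 (exact, two-sided, with 0.133 as the smallest p that 4 against 2 libraries allow). Over all 15224 sequence units that share their first 18 nt and passed the filter on low counts, edgeR's quasi-likelihood test gave miR-375-3p a log2 fold change of 2.58 in favour of colostrum with a standard error of 1.90 (adjusted p = 0.976). None of the 15224 units passed an adjusted p of 0.05 in edgeR, a share of 0% called. In edgeR 260 units (1.71%) had an unadjusted p under 0.05, against 3549 of 15506 units without 0d-3, where 0 were called. With no filter on low counts edgeR called 2 of 1122043 units, 2 of them higher in colostrum. DESeq2 called 35 of the 15224 units, 0 of them higher in colostrum. DESeq2 gave miR-375-3p a log2 fold change of 2.08 but no p, so that its calls say nothing of this miRNA. In edgeR the log2 fold change was 2.08 with RLE size factors, 1.43 with no filter on low counts and 0.98 with no normalization, each with an adjusted p over 0.05. Without 0d-3 miR-375-3p had a log2 fold change of 0.04 with a standard error of 0.55 (edgeR, adjusted p = 1), so that 1 library decides its size.

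The level depends on the total to which it is set, and 0d-3 differed from the other libraries in both miR-148a-3p and the leaders. As a share of the 12 listed miRNAs other than miR-148a-3p, miR-375-3p was 1.98% in 0d-1, 1.98% in 0d-2, 2.26% in 0d-3 and 2.47% in 3d. The same share was 2.62% in 7d, 2.91% in 14d, 2.23% in 21d and 1.77% in 28d. On this total 0d-3 lay within the range of the other libraries, at 1.14 times the mean of 0d-1 and 0d-2, against 3.15 times as a share of the 13. Per 1000000 inserts without a leader, miR-375-3p had 1884 counts in 0d-1, 2050 in 0d-2, 5004 in 0d-3 and 1779 in 3d. Per 1000000 such inserts it had 1799 counts in 7d, 2465 in 14d, 1966 in 21d and 1554 in 28d. Without 0d-3 the highest of these values was 1.59 times the lowest. The part of miR-148a-3p and of the leaders in the level of 0d-3 was not tested beyond these changes of the total.

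Across libraries, the miRNAs whose log2 share of the 13 was most like that of miR-375-3p were miR-200c-3p (Pearson r = 0.948), miR-27b-3p (r = 0.946) and miR-574-3p (r = 0.946) over 8 libraries. miR-200c-3p is a well-known epithelial miRNA, miR-27b-3p is widely expressed, and miR-574-3p is an abundant miRNA of several body fluids. Over the 7 libraries without 0d-3, r was 0.537 for miR-574-3p, 0.530 for miR-200c-3p and 0.501 for miR-27b-3p. The same miRNAs led in both cases with much lower coefficients in the second, and since the shares have a common total they are given as a description. The ratio of miR-375-3p to miR-27b-3p ranged from 0.749 in 7d to 1.16 in 14d, with 1.03 in 0d-3. Its ratio to miR-200c-3p was between 0.348 and 0.547 in 7 libraries and 0.155 in 0d-3. The ratios of miR-375-3p to miR-191-5p and miR-25-3p were likewise lowest in 0d-3 (0.172 and 0.127). In contrast, its ratio to miR-148a-3p was between 0.00903 and 0.0174 in 7 libraries and 22.1 in 0d-3. Its ratio to miR-21-5p, a miRNA induced in many inflamed and injured tissues, was between 0.319 and 0.982 in 7 libraries and 3.33 in 0d-3.

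Among inserts that matched the first 18 nt and carried no leader, most were the listed sequence from end to end. Inserts equal to it made up 93.0% of miR-375-3p in 0d-1, 91.7% in 0d-2, 83.5% in 0d-3 and 94.7% in 3d. In mature milk they made up 93.0% in 7d, 93.3% in 14d, 91.0% in 21d and 85.2% in 28d. The 2 low libraries, 0d-3 and 28d, belong to different milk classes, and the classes overlapped. The mean in colostrum was 90.7% ± 4.96 and that in mature milk was 90.6% ± 3.73 (SD, n = 4 each; exact permutation test, two-sided, p = 0.971, adjusted p = 0.971). Without 0d-3 the mean of colostrum was higher by 2.48 percentage points (exact permutation test, two-sided, unadjusted p = 0.343).

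Most other listed miRNAs equalled their listed sequence from end to end less often. The share of such inserts measures agreement with the listed 3′ end, not how varied the inserts are. In the same libraries the median of the other 12 miRNAs was 60.0% in 0d-1, 60.8% in 0d-2, 57.9% in 0d-3, 61.5% in 3d, 54.4% in 7d, 58.9% in 14d, 58.6% in 21d and 58.2% in 28d. miR-375-3p lay above the median in 8 of 8 libraries, by 31.9 ± 4.10 percentage points (SD, n = 8), which passed an exact sign-flip permutation test over libraries (two-sided, p = 0.00781, the smallest that 8 libraries allow, adjusted p = 0.0234 over 3 tests). It ranked from 2 to 4 of 13, and miR-148a-3p ranked first in each library. Any miRNA that lies above the median in every library reaches the same smallest p, so that the test shows nothing particular to miR-375-3p. The share was close to that of miR-375-3p in miR-25-3p (87.8% to 92.8%) and miR-574-3p (86.6% to 91.6%). In 0d-3 and 28d these miRNAs both lay above miR-375-3p. The close relatives let-7c and miR-27a have the same first 18 nt as let-7a-1-5p and miR-27b-3p, so that any of their inserts would enter those 2 counts. Whether such inserts were present was not tested. The mean length of miR-375-3p relative to its listed length differed from the median of the other 12 by -0.00315 nt ± 0.0406 (SD, n = 8; exact sign-flip permutation test, two-sided, p = 0.805, adjusted p = 0.867). Against the mean of the other 12 the difference was 0.120 nt (exact sign-flip permutation test, two-sided, unadjusted p = 0.00781), so that its direction depends on the reference chosen.

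**Figure D2:**
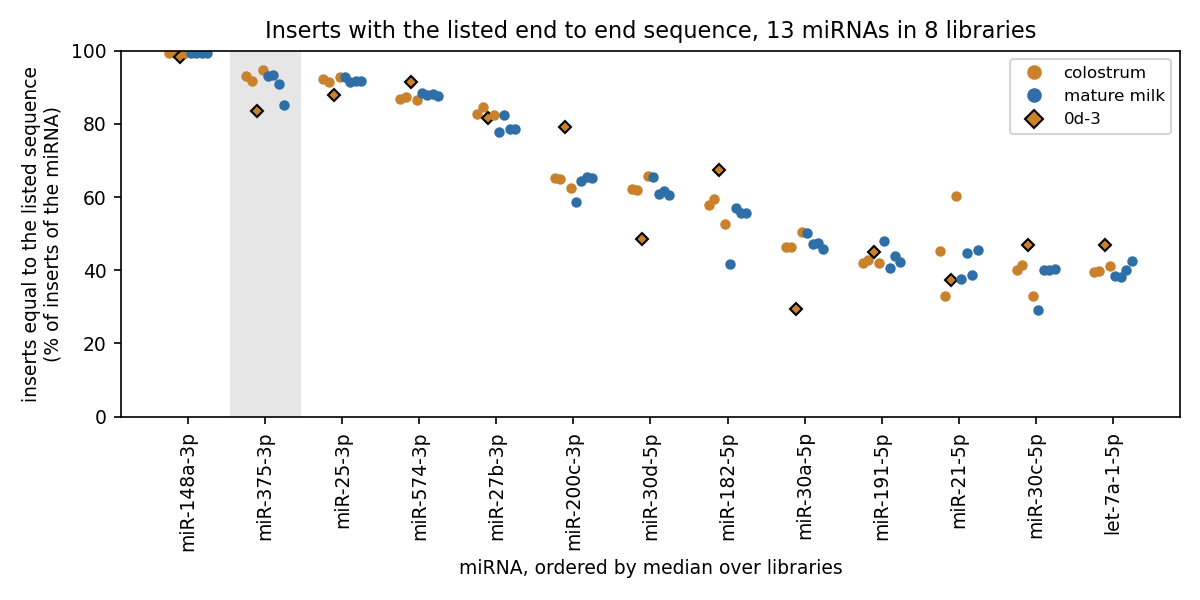
Share of inserts equal to the listed sequence from end to end (% of the inserts of each miRNA) for the 13 miRNAs in 8 libraries, with 1 point a library, 0d-3 as a diamond and miR-375-3p on a grey band. The points of miR-375-3p run from 83.5% to 94.7%, second to miR-148a-3p in the order of medians.

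Inserts of 22 nt made up 95.3% of miR-375-3p in 0d-1, 95.0% in 0d-2, 90.5% in 0d-3 and 96.8% in 3d. They made up 94.6% in 7d, 95.2% in 14d, 92.9% in 21d and 92.8% in 28d. The mean length lay between 21.94 nt (21d) and 22.06 nt (0d-3), so that all libraries were within a small fraction of a base of the listed length.

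**Figure D3:**
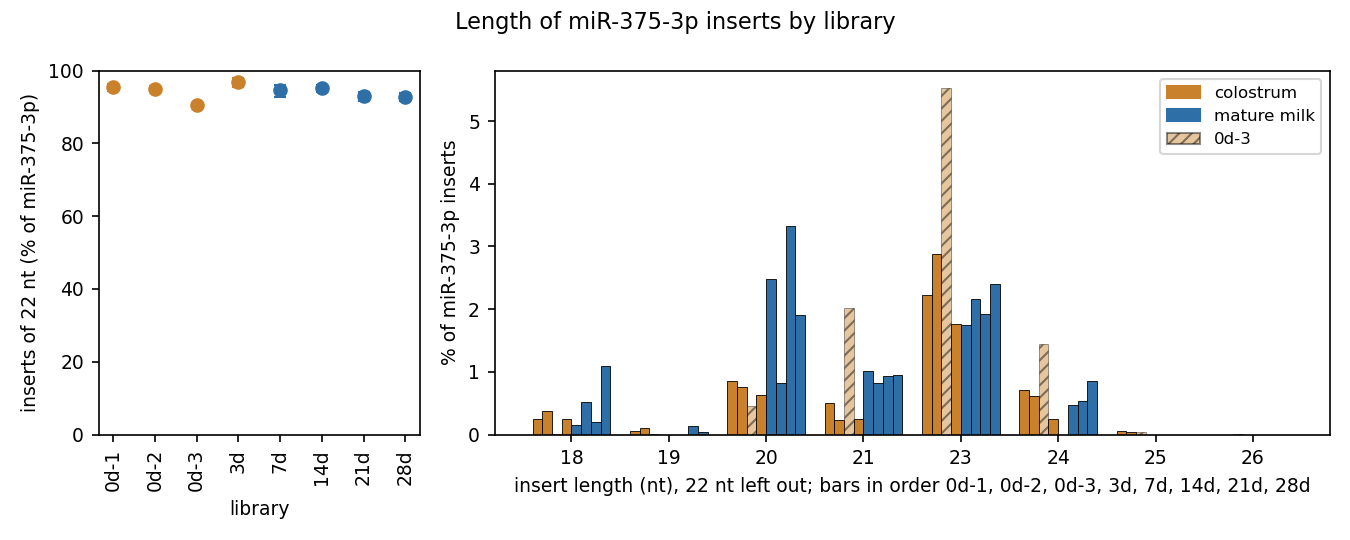
Length of miR-375-3p inserts, as the share of 22 nt in each library with 95% Wilson intervals (left) and the shares of the other lengths from 18 to 26 nt, 1 bar a library (right). Inserts of 22 nt exceed 90% in every library, 0d-3 (hatched) has the tallest bar at 23 nt and 21d has the tallest bar at 20 nt.

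Among inserts without a leader, shorter ones, which end before the listed 3′ end with nothing added, were more frequent in most mature milk libraries. They made up 1.62% of miR-375-3p in 0d-1, 1.27% in 0d-2, 2.32% in 0d-3 and 1.13% in 3d. In mature milk they made up 3.35% in 7d, 2.12% in 14d, 4.32% in 21d and 3.76% in 28d. The classes overlapped only in that 0d-3 was above 14d. The mean in colostrum was 1.59% ± 0.533 and that in mature milk was 3.39% ± 0.936 (SD, n = 4 each), and the difference of -1.80 percentage points did not pass the exact permutation test (two-sided, p = 0.0571, adjusted p = 0.229 over 4 tests). Without 0d-3 the classes did not overlap and the difference was -2.05 percentage points (exact permutation test, two-sided, unadjusted p = 0.0571, the smallest that 3 against 4 libraries allow). Behind a leader shorter inserts were 10.7% (0d-2) to 23.2% (21d). Leaders were on 20.8% (3d) to 32.0% (0d-2) of miR-375-3p in these colostrum libraries. In mature milk they were on 2.83% in 7d, 22.8% in 14d, 4.39% in 21d and 31.1% in 28d. The separation is thus given for inserts without a leader only, and both sets together were not tested. The 2 libraries of 36-nt reads, 7d and 21d, had 2 of the 3 highest values. Among libraries of 40-nt reads the difference was -1.35 percentage points with 4 against 2 libraries (exact permutation test, two-sided, p = 0.267, with 0.133 as the smallest possible), so that read length and milk class cannot be fully told apart.

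The cut was mostly at 1 of 2 places. Inserts shorter by 2, which end after position 20, were 0.859% of miR-375-3p in 0d-1, 0.684% in 0d-2, 0.444% in 0d-3 and 0.631% in 3d. They were 2.33% in 7d, 0.775% in 14d, 3.19% in 21d and 1.72% in 28d. The cut after position 20 thus was most frequent in 21d, 7d and 28d, and 14d lay below 0d-1. Inserts shorter by 1 were 1.87% in 0d-3, and the remaining libraries had between 0.205% and 0.950%, so that the shorter inserts of 0d-3 were mostly of another kind than those of 21d. An end after position 19 was nearly absent, seen as 1 count in 0d-3 and elsewhere not at all (0 of 2210 in 28d, an upper limit of 0.174% by the Wilson interval). An end after position 18, the shortest that the rule could find, was at most 1.09% (28d).

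Additions after the full sequence were mostly of A. Inserts with 1 or more added bases made up 2.78% in 0d-1, 3.42% in 0d-2, 6.70% in 0d-3 and 1.89% in 3d. In mature milk they made up 1.60% in 7d, 2.58% in 14d, 2.40% in 21d and 3.03% in 28d. The library 0d-3 had the highest share, and the classes overlapped. The mean in colostrum was 3.70% ± 2.10 and that in mature milk was 2.40% ± 0.597 (SD, n = 4 each; exact permutation test, two-sided, p = 0.286, adjusted p = 0.571). Without 0d-3 the difference was 0.295 percentage points (exact permutation test, two-sided, unadjusted p = 0.571). Inserts in which the first added base was A made up 2.07% in 0d-1, 2.43% in 0d-2, 5.15% in 0d-3 and 1.39% in 3d. They made up 1.16% in 7d, 2.01% in 14d, 1.73% in 21d and 1.81% in 28d. An added T was less frequent than an added A in each library, from 0.252% (3d) to 1.24% (0d-3). Whether an added base continues the miR-375 hairpin was not tested, since the hairpin sequence was not used here. The added A share differed from the median of the other 12 miRNAs by 0.374 ± 1.31 percentage points and lay above it in 3 of 8 libraries (SD, n = 8; exact sign-flip permutation test, two-sided, p = 0.867, adjusted p = 0.867). The mean rests on 0d-3, where the difference was 3.57 points, and without 0d-3 it was -0.083 points (exact sign-flip permutation test, two-sided, unadjusted p = 0.281).

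**Figure D4:**
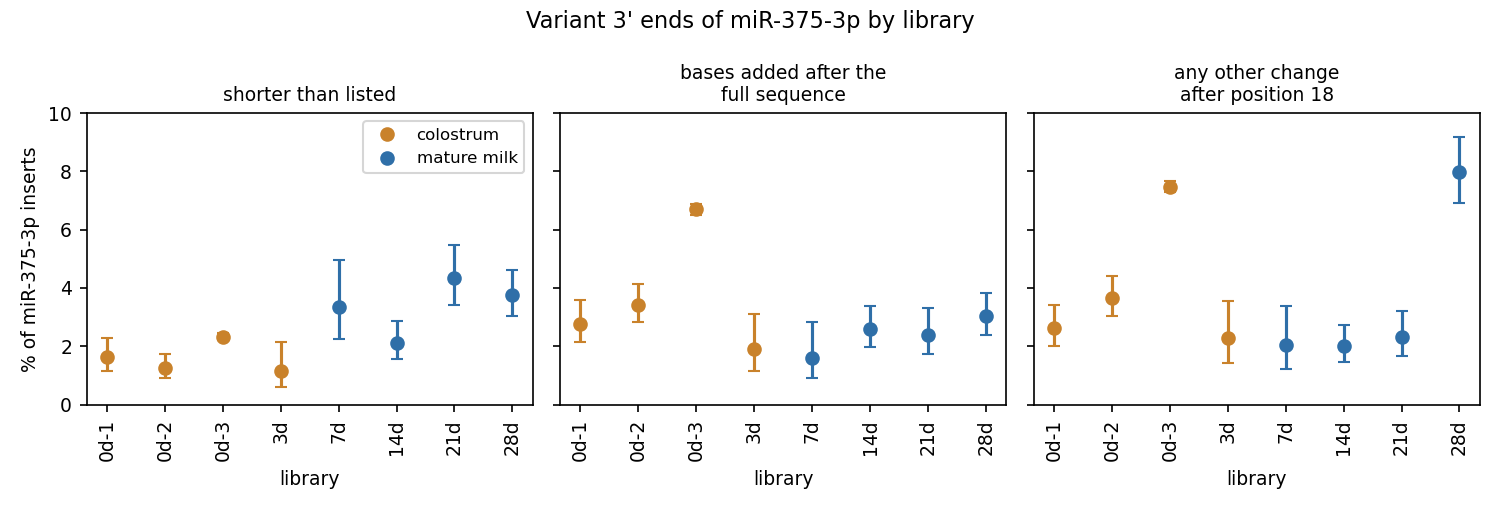
Share of miR-375-3p inserts (% of the inserts of a library, with 95% Wilson intervals) that are shorter than listed (left), that carry bases after the full sequence (centre) or that differ in any other way after position 18 (right), in 8 libraries. On the left 21d is highest (4.32%), in the centre 0d-3 (6.70%), and on the right 28d (7.96%) and 0d-3 (7.47%).

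The remaining inserts differed from the listed sequence in another way after position 18. They made up 2.63% in 0d-1, 3.66% in 0d-2, 7.47% in 0d-3 and 2.27% in 3d. In mature milk they made up 2.04% in 7d, 2.01% in 14d, 2.33% in 21d and 7.96% in 28d. The high libraries, 28d and 0d-3, are those with the lowest share of the listed sequence. By its mean over libraries the leading variant was T20G, a G in place of the T at position 20, although in 21d A22T had 11 counts and T20G had 9. Its share of miR-375-3p was 1.11% in 0d-1, 2.33% in 0d-2, 2.93% in 0d-3 and 1.26% in 3d. It was 0.728% in 7d, 0.878% in 14d, 0.599% in 21d and 5.97% in 28d. The mean over libraries was 1.98% ± 1.81 (SD, n = 8), with 28d highest, followed by 0d-3 and 0d-2.

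To see changes at every position, inserts of the full 22 nt with at most 1 base changed were counted as well, a set that reaches beyond the rule above. Of these, 5.89% had a changed base in 0d-1, 5.37% in 0d-2, 16.7% in 0d-3 and 3.47% in 3d. In mature milk 4.34% had a changed base in 7d, 3.99% in 14d, 3.26% in 21d and 10.2% in 28d. The changes were concentrated at a few positions near the 3′ end. The 2 high libraries shared position 20 (4.38% in 0d-3), whereas position 17 was high in 0d-3 alone (7.87%). In 28d position 20 was changed in 7.39% of the inserts, against a median of 0.0327% for the other 12 miRNAs at this position. In 0d-3 G17C was the most frequent change with 5299 counts (7.60%), and T20G followed with 2038 counts (2.92%). G17C was at most 0.706% (0d-2) in the other libraries and had 0 counts in 3d, 7d and 21d. G19C had 898 counts in 0d-3 (1.29%), 1 count in 0d-1 and 0 in the other 6 libraries. G17C and G19C were singled out after their values had been seen.

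Over positions 17 to 20, the mean share of changed bases was 0.601% per base in 0d-1, 0.927% in 0d-2, 3.56% in 0d-3 and 0.353% in 3d. It was 0.299% in 7d, 0.465% in 14d, 0.283% in 21d and 2.04% in 28d. The median of the other 12 miRNAs lay between 0.0600% and 0.0893% per base in 7 libraries and was 0.277% in 0d-3, and miR-375-3p ranked 2 or 3 of 13 in every library. No test was made of this, since the positions were chosen after their values had been seen. Any let-7c and miR-27a inserts could count here as changed bases of let-7a-1-5p and miR-27b-3p, which was not tested and bears on the rank. Of the 66 possible single changes, 5 give the base that stands both before and after the changed position, and T20G and G17C are among these. Such changes made up 67.6% of all changes in 28d, 67.0% in 0d-3 and 59.9% in 0d-2, and between 17.2% and 37.0% in the other 5 libraries. Neither the source of these changes in the RNA, the library preparation or the sequencing nor their part in the shares of variants was tested.

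**Figure D5:**
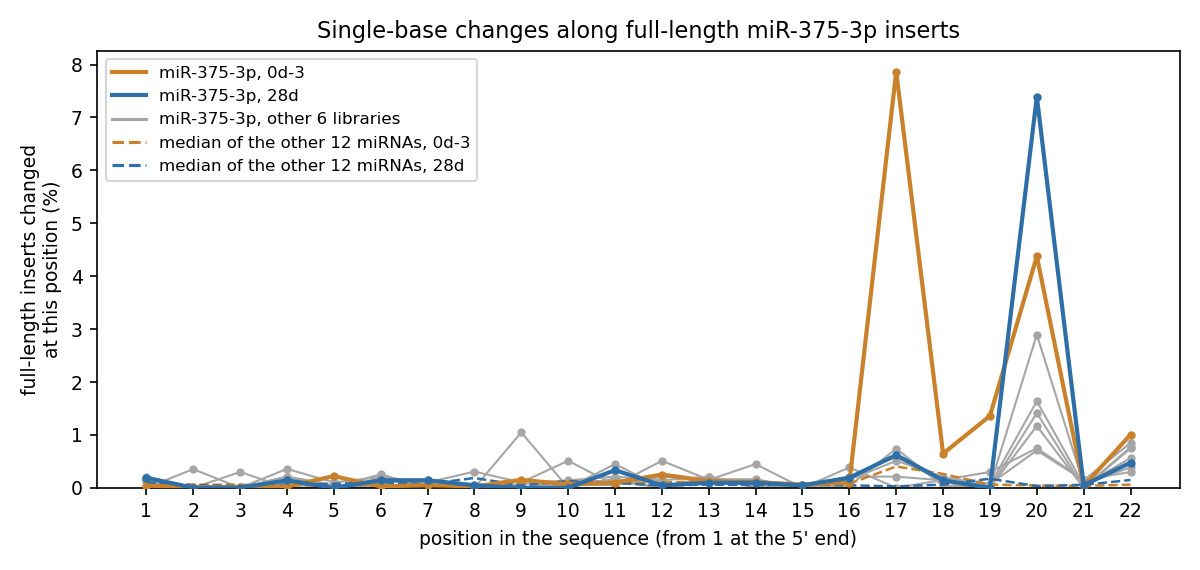
Share of full-length miR-375-3p inserts with a changed base at each position from the 5′ end (%, among inserts with at most 1 change), with 0d-3 and 28d as thick lines, the other 6 libraries in grey and the median of the other 12 miRNAs dashed. Peaks stand at position 17 in 0d-3 and at position 20 in 28d (7.39%) and 0d-3 (4.38%), and positions 1 to 8, the seed with the first base, stay low.

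miR-375-3p was also found behind the leaders, in inserts that were too long or began too early for the rule. Inserts made of a leader and miR-375-3p numbered 720 in 0d-1, 1378 in 0d-2, 0 in 0d-3 and 208 in 3d. In mature milk they numbered 20 in 7d, 571 in 14d, 69 in 21d and 998 in 28d. With these included, 26.7% of miR-375-3p carried a leader in 0d-1, 32.0% in 0d-2, 20.8% in 3d, 2.83% in 7d, 22.8% in 14d, 4.39% in 21d and 31.1% in 28d. The count of 0 in 0d-3 allows a share of up to 0.00552% (Wilson interval). Reads of 36 nt leave at most 23 nt after a leader, and 7d and 21d, the libraries with such reads, had the lowest shares apart from 0d-3. The median share of the other 12 miRNAs was 13.6% in 0d-1, 14.6% in 0d-2, 5.68% in 3d, 1.89% in 7d, 12.7% in 14d, 2.92% in 21d and 15.5% in 28d, below miR-375-3p in each of these 7 libraries. The highest share among the other 12 lay above miR-375-3p in each of these libraries, from 36.9% (7d) to 92.5% (0d-2). These differences were not tested. AAGCT was the most frequent leader of miR-375-3p in 6 libraries (53.6% to 62.4% of the inserts with a leader), whereas TCAAG led in 3d with 69.2%. Among the other 12 miRNAs AAGCT led in the same 6 libraries, with 50.7% (21d) to 56.6% (0d-2). In 3d TCAAG also led among the other 12 miRNAs, with 58.2%.

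The ends of miR-375-3p were different behind a leader. Shorter inserts made up 13.5% of those with a leader in 0d-1, 10.7% in 0d-2, 16.3% in 3d, 15.0% in 7d, 14.0% in 14d, 23.2% in 21d and 11.1% in 28d. In each of these 7 libraries the Wilson interval lay above that of the inserts without a leader, which had at most 4.32% (21d). A22T, a T in place of the last base, was 4.56% of the 22-nt sequences behind a leader in 0d-1, 3.91% in 0d-2, 5.49% in 3d, 5.07% in 14d, 10.2% in 21d (5 of 49) and 4.33% in 28d. Without a leader A22T was 0.530%, 0.396%, 0.651%, 0.651%, 0.787% and 0.439% in the same libraries, and the Wilson intervals did not overlap in any of them. T20G was lower behind a leader than without one in 0d-1 (0.175% and 1.17%), 0d-2 (0.799% and 2.45%), 14d (0 of 454 and 0.922%) and 28d (1.48% and 6.44%), and nearly equal in 3d (1.22% and 1.30%), with Wilson intervals that overlapped in 0d-1, 3d and 14d. These comparisons were chosen after the values had been seen and were not tested. The 7d library had 14 such 22-nt sequences behind a leader, with 0 counts of A22T and T20G, and 21d had 0 of T20G among 49, so that differences in these were not detectable at this depth.

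Some reads of miR-375-3p lay outside the count for other reasons. Reads that began with the first 18 nt but had no match to the adaptor were 9.47% of all such reads in 0d-1, 10.3% in 0d-2, 0.599% in 0d-3 and 8.54% in 3d. They were 22.1% in 7d, 6.65% in 14d, 21.7% in 21d and 9.46% in 28d. The highest values were those of the libraries of 36-nt reads. Reads that carried 1 base before the 5′ end were from 1.34% (7d) to 4.83% (3d) of miR-375-3p, and inserts that began 1 base later were from 1.18% (0d-3) to 3.13% (0d-1). A shift of the 5′ end changes the seed, and leaders aside most miR-375-3p of every library began at the listed 5′ end.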

How the data were processed

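The authors deposited, for each of the 8 libraries, a table of read kinds (identical reads merged) and raw counts, with no normalization. The reads still held the adaptor and single-copy kinds, so that the filters described in the methods on length and on counts above 10 were not in them. No aligner, genome or hairpin was used here.

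The adaptor was found from the bases that follow the complete listed miRNA sequences and trimmed where its first 8 nt first matched exactly. Those inserts of 18 to 26 nt were then assigned to a miRNA by their first 18 nt. Shares have 95% Wilson intervals. The named items were miR-375-3p, the other 12 listed miRNAs, the 3 most like it by Pearson r, and its 6 inserts with the highest mean share plus any first in a library. The miRNA, the lists and the tests were chosen with earlier results of these data known. Markers of other cells were fixed by name only, and apart from miR-148a-3p and miR-200c-3p they were not analysed here, since no sequences were used for them.

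Group means were compared by exact permutation tests and within-library differences by exact sign-flip tests, with Benjamini-Hochberg adjustment within each family. Units of the first 18 nt were tested with edgeR 4.0.16 (filterByExpr, TMM, quasi-likelihood), and DESeq2 1.42.0 was an alternative. Other totals, matches, adaptor lengths, count minimums, normalizations and leaving out each library were further alternatives. R 4.3.3 with limma 3.58.1 and Python 3.11.15 with scipy 1.17.1 and numpy 2.4.6 were used. The code was tested on simulated data. With 687 miR-375-3p counts in 7d, the smallest number, the share of 0.672% has an interval of 0.623 to 0.724%.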

Additional observations from a re-analysis of the deposited data

Results flagged for a closer look

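In 9 of 28 groups of 4 libraries the highest or lowest library lay far from the rest (Dixon's test at 95%), where chance flags about 1 in 20 groups. The groups hold the same libraries, so that they are not independent, and 4 of the 9 come from 0d-3.

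Among colostrum libraries 0d-3 was far above the others in the share of miR-375-3p among the 13 miRNAs (2.26%), in its counts per 1000000 inserts (4999) and per 1000000 inserts without a leader (5004), and in its mean length (22.06 nt). As a share of the 12 miRNAs other than miR-148a-3p, 0d-3 was not far from the others.

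Among mature milk libraries 14d stood out in the share of the 13, with 1.09%. The library 28d stood out in 4 measures of the sequence of miR-375-3p. Inserts with any other change after position 18 made up 7.96%, inserts with an added T made up 1.18%, full-length inserts with 1 changed base made up 10.2%, and position 20 was changed in 7.39% of them. The cause of these values was not tested.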

How the results depend on the processing

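Of 120 recomputed values, 98 gave the same outcome and 19 changed direction. The same outcome means direction and side of the threshold, or direction alone for the DESeq2 value, which had no p. For the most like miRNA it means the same miRNA. The share of the 13 (colostrum over mature milk, log2 ratio 0.51) became -0.13 as a share of the 12 without miR-148a-3p, -0.54 without 0d-3 per all inserts, -0.031 without 0d-3 per inserts without a leader, -0.27 without 0d-3 among 40-nt reads, -0.15 without 0d-3 as a share of the 12 and -0.13 without 0d-3 and 3d. The last 2 were chosen after seeing the data. With each library left out it ranged from -0.10 (without 0d-3) to 0.71. In the other direction it was 1.0004 per all inserts, 2.58 per TMM effective library size and 3.76 per all reads. None of the 27 alternatives passed the threshold.

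The share of the listed sequence (difference of 0.085 points) became -0.14 with more than 10 counts per insert and -1.66 for inserts of 16 to 28 nt, and ranged from -1.71 to 2.48 with each library left out. The difference in shorter inserts (-1.80 points) was -1.99 for 16 to 28 nt and -1.87 with 10 nt of the adaptor, both with p = 0.0286 before adjustment (exact permutation test), and ranged from -2.22 to -1.49 with each library left out. The difference in additions ranged from 0.295 to 1.90.

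The excess of the listed sequence over the other 12 miRNAs was between 27.9 and 33.8 points in all 13 alternatives (exact sign-flip p of 0.00781 to 0.0313). The length difference from the median became 0.120 nt against the mean of the other 12 (exact sign-flip permutation p = 0.00781), and ranged from -0.0126 to 0.00431 with each library left out. The added A difference became -0.17 with more than 10 counts and -0.40 against the mean, and ranged from -0.083 (without 0d-3) to 0.474. The most like miRNA without 0d-3 was miR-574-3p (r = 0.537). The edgeR fit gave log2 fold changes from 0.04 to 3.06 with each library left out. The cause of these changes was not tested. No paired analysis was possible because the libraries share no replicate numbers in the labels and those after 0 days are pools of the same sows. Depth limits 7d most.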
